A study of Rattus norvegicus with 4 samples.

Results

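Transcripts best known from nerve cells and their glia were examined in cultured heart muscle cells. They were all probe sets whose single gene symbol in the platform annotation was Prph, Nefl, Nefm, Gap43, Stmn2, Stmn3, Uchl1 or Cnp. A probe set is the group of short oligonucleotides on the array that reads 1 transcript. All 8 genes were on the array, with 12 probe sets of the 15866 that were not Affymetrix controls, out of 10411 genes named on it. The genes were chosen by their log2 differences between fibronectin and control in these same arrays, some of which an earlier account had shown as higher, so the values below are given as a description, with no test. Neonatal rat ventricular myocytes in primary culture had been plated either on uncoated dishes (the control, 2 arrays) or on dishes coated with fibronectin, a matrix glycoprotein bound by integrins (2 arrays). Both groups shared 24 h in 10% serum followed by 48 h without serum, and each array received total RNA. The labels do not say whether replicate arrays stem from separate cultures, so the spread between them may be technical.

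Autonomic and sensory nerve fibres grow into the heart around birth, and ganglia with neurons, satellite glia and Schwann cells lie on its surface. Peripherin and the neurofilaments form the intermediate filaments of axons, while GAP-43 and the stathmins act in growing axon tips, on the membrane and on microtubules. UCHL1 is an abundant ubiquitin hydrolase of neurons and endocrine cells, and CNP is an enzyme of myelin-forming glia. None of these genes is a contractile gene of the myocyte, and several are also known to be transcribed at low levels outside the nervous system. In RNA from a whole culture, more cells of a type and more RNA per cell cannot be told apart.

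Upstream sequence is shown for the 4 genes with a usable level (Prph, Stmn3, Uchl1 and Cnp), so that what their start regions do and do not have in common can be seen. RefSeq promoter entries of the GRCr8 assembly matched 4 of the 8 genes, and each run below is the 250 bases before the annotated start, 5′ to 3′ on the gene's strand. Capitals mark TATAAA, the core of a TATA box, and GGGCGG, a GC box, on either strand. No entry was matched for Nefl, Nefm, Gap43 and Stmn2.
Prph, chr7:132097039-132097288, plus strand: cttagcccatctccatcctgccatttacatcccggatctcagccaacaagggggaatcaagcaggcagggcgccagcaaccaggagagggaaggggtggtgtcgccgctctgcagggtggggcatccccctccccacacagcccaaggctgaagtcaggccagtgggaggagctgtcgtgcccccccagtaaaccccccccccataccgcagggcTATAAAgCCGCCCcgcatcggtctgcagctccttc
Stmn3, chr3:188802495-188802744, minus strand: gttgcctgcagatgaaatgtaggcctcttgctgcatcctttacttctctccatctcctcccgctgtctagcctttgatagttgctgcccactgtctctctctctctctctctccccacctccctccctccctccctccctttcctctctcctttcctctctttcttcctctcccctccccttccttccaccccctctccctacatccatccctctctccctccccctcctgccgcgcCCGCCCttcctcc
Uchl1, chr14:41849418-41849667, minus strand: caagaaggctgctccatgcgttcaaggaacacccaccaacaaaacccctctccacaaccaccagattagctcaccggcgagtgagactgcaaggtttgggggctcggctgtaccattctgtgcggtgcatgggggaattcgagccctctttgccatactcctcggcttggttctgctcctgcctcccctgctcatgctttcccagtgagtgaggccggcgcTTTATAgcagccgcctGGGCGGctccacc
Cnp, chr10:86011254-86011503, plus strand: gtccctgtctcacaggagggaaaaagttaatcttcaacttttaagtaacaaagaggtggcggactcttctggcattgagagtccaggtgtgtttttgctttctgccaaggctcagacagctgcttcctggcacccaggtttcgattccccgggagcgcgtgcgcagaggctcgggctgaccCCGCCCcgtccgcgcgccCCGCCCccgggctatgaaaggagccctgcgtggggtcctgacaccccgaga

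All 4 windows held GGGCGG on 1 of the strands, as did 30.5% of 33469 RefSeq rat windows of the same length. TATAAA was in the Prph window, 35 bases before the start, and on the opposite strand in the Uchl1 window, 29 bases before it, against 12.9% of all windows. In the Prph window the TATAAA match and a GC box lay 1 base apart. The RE1 element, to which the repressor REST binds in many neuronal genes, was searched through its parts AGCACC and GGACAG on both strands. Neither was in any of the 4 windows, while 13.5% and 18.2% of all windows held them. The GC content was 64.4% for Prph, 59.2% for Stmn3, 59.6% for Uchl1 and 60.4% for Cnp, against a median of 51.2%. CG dinucleotides numbered 9, 4, 11 and 16 in the same order, with a median of 5 over all windows. The Stmn3 window, with long CT-rich repeats, was thus near the median in CG, and the Cnp window held the most of the 4. These matches describe the letters in the windows.

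Signals were quantile normalized across the 4 arrays, raised to a floor of 23.4 (4.55 on the log2 scale) and converted to log2. Probe sets among the 40% with the lowest mean were set aside as dim, which left 9519 tested. Only 5 of the 12 neural probe sets, from 4 of the 8 genes, passed this filter. They were the single probe sets of Prph, Stmn3 and Uchl1 and both probe sets of Cnp. All probe sets of Nefl, Nefm, Gap43 and Stmn2 were dim. A probe set that passed through 1 bright array alone is more likely to differ between groups, so the 5 do not stand for all 12.

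The arrays were not of equal quality. The 3' to 5' signal ratio of the Gapdh control was 1.64 and 1.15 on control replicates 1 and 2 and 6.02 and 3.52 on fibronectin replicates 1 and 2. That of the actin control was 1.46 and 1.4 on the controls and 13 and 6.29 on fibronectin, while that of hexokinase was 3.77 and 4.12 on the controls and 3.11 and 7 on fibronectin. The Gapdh and actin ratios were thus higher on both fibronectin arrays, and the hexokinase ratio on replicate 2 alone. Fibronectin replicate 2 stood apart from the other arrays, with correlations of 0.775 to 0.794 over tested probe sets where the remaining pairs had 0.847 to 0.910. Its deposited values were whole multiples of a step of 1.95, so its 20th percentile was only 9 steps, against 101 to 283 steps on the other 3. No probe set had the same deposited value on any pair of arrays. Where in each transcript the probe sets lie was not used here, and the part of the 3' to 5' difference in any value below was not tested.

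The results began with the neuronal intermediate filaments, of which peripherin alone had a usable level. Prph, which encodes peripherin, the filament of peripheral and autonomic neurons, was read by probe set 1368028_at. Its log2 signal was 5.97 and 4.69 on control replicates 1 and 2 and 6.33 and 7.63 on fibronectin replicates 1 and 2. Both fibronectin arrays lay above both controls, but the lower fibronectin value exceeded the higher control by far less than the controls differed from each other (1.28). The means were 5.33 ± 0.90 on uncoated dishes and 6.98 ± 0.92 on fibronectin (SD, n = 2 each), a log2 difference of 1.65 (SE 0.80) or 3.13-fold. Without fibronectin replicate 2 the difference was 1.00, without control replicate 2 it was 1.01, and without fibronectin replicate 1 it was 2.29.

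The neurofilament genes showed no such pattern. Nefm, the medium neurofilament subunit, measured 5.34 and 5.57 on the controls and 6.41 on fibronectin replicate 1, and was at the floor on fibronectin replicate 2. The fibronectin arrays thus lay on opposite sides of the controls, and the difference of 0.03 was the mean of 0.96 and -0.90 (-0.01 without normalization of the deposited values). On fibronectin replicate 2 the deposited Nefm value was 7 steps above 0.

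Nefl, the light neurofilament subunit, had a pair of probe sets made to the same sequence record. The first, 1370059_at, measured 4.60 and 5.24 on the controls, and each fibronectin array was at the floor. With the controls so near the floor, the size of its difference was not measured. The second, 1370058_at, was at the floor on all 4 arrays. Both read exactly 3 steps on fibronectin replicate 2.

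Among proteins of the growing axon, Gap43 and Stmn2 were dim and Stmn3 was not. Gap43 encodes a protein of the growth cone membrane. Its brighter probe set, 1367930_at, measured 5.00 on control replicate 1, was at the floor on control replicate 2, and measured 5.46 and 6.46 on fibronectin replicates 1 and 2. Both fibronectin arrays were above both controls, with a difference of 1.19 that ran from 0.69 without fibronectin replicate 2 to 1.69 without fibronectin replicate 1. The second Gap43 probe set, 1371287_at, was at the floor on all arrays but fibronectin replicate 2, where it measured 4.94. That value stood for 12 steps of the deposited scale, and 12 steps were also what control replicate 1 showed on its far finer scale. Its difference was 0.19 with the floor and 3.04 without it, where it compares values of which all but 1 lie under the floor.

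Stmn2, also called SCG10, is a neuronal stathmin that binds tubulin dimers. Its brighter probe set, 1370042_at, measured 5.88 and 5.85 on the controls, 4.95 on fibronectin replicate 1 and 6.50 on fibronectin replicate 2. The controls were nearly identical and the fibronectin arrays lay on either side of them, with a difference of -0.14 that turned to 0.64 without fibronectin replicate 1. The second Stmn2 probe set, 1370041_at, made to the same record, measured 4.61 on control replicate 1 and 5.56 on fibronectin replicate 2 and was at the floor on the other arrays. In both Stmn2 probe sets the highest value was on fibronectin replicate 2.

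Stmn3, the stathmin also known as SCLIP, had the largest difference of the 8 genes on the floored scale. Probe set 1368157_at measured 5.44 on control replicate 1, was at the floor on control replicate 2, and measured 6.49 and 8.52 on fibronectin replicates 1 and 2. Both fibronectin arrays were clear of both controls, but they differed from each other by 2.03. The means were 4.99 ± 0.63 and 7.50 ± 1.44 (SD, n = 2 each), a log2 difference of 2.51 (SE 0.84), 5.69-fold with control replicate 2 counted at the floor. Fibronectin replicate 2 stood 3.52 above the control mean and fibronectin replicate 1 stood 1.49 above it. Without fibronectin replicate 2 the difference was 1.49, with no floor it was 3.03, and with an offset of 50 in place of the floor it was 1.67.

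**Figure D1:**
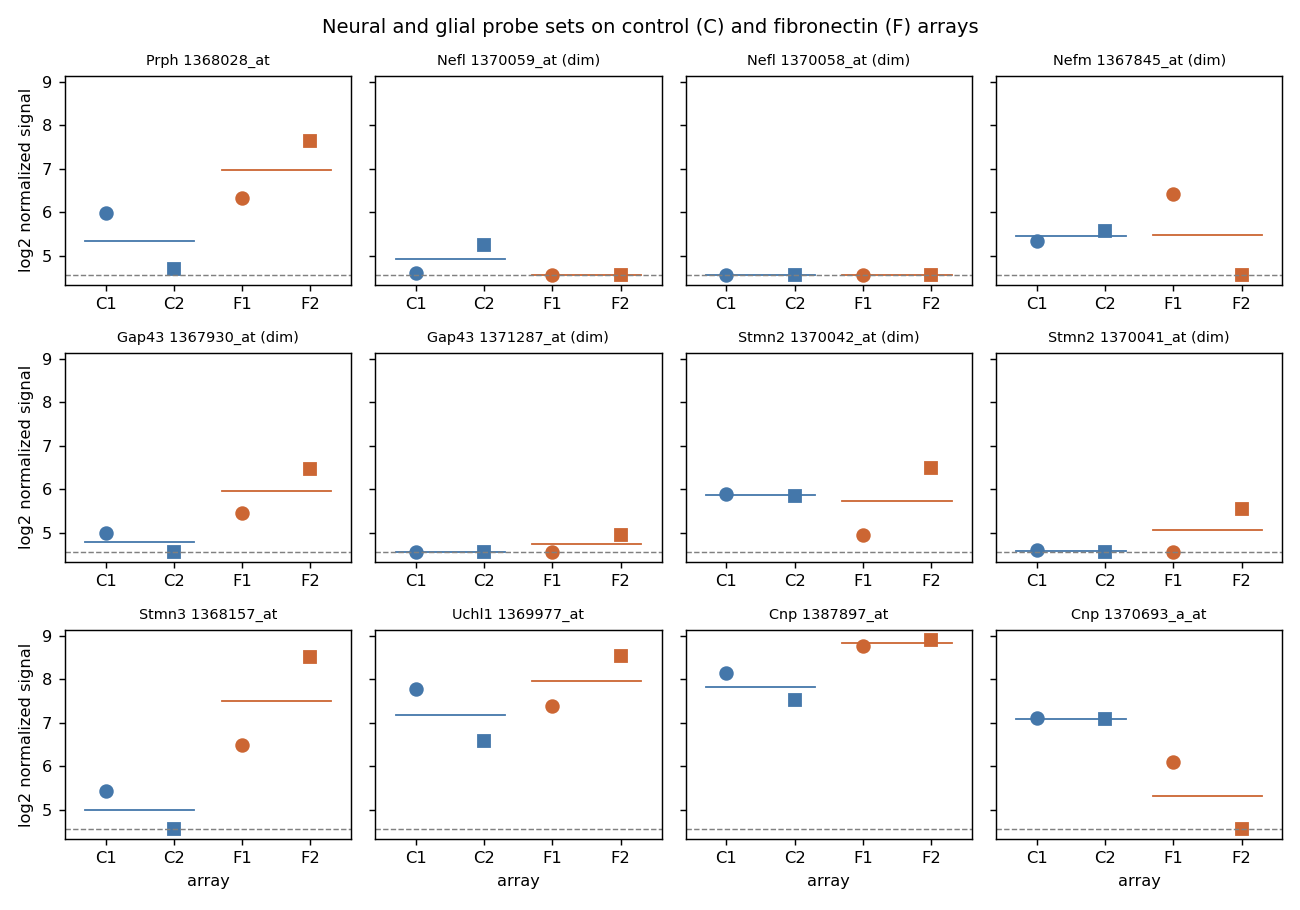
Log2 normalized signal (vertical axis) of the 12 probe sets on control arrays C1 and C2 and fibronectin arrays F1 and F2 (horizontal axis), with lines at the group means and a dashed line at the floor of 4.55. Stmn3, Prph, the brighter Gap43 and the brighter Cnp probe set have both fibronectin points above both control points, while the second Cnp probe set and 1 of the Nefl probe sets have both below.

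The stathmin family was also measured through its other genes. Stmn1, the founding stathmin of dividing cells, measured 9.53 and 9.01 on the controls and 10.32 and 8.79 on fibronectin, a difference of 0.28 (SE 0.51) with overlapping groups. Stmn4, another neuronal member, measured 7.19 and 5.90 on the controls and 7.18 and 5.61 on fibronectin, a difference of -0.15 (SE 0.76). In both genes replicate 1 was higher than replicate 2 in each group, whereas Stmn3 had its highest value on fibronectin replicate 2.

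Uchl1 encodes a hydrolase that releases ubiquitin from small adducts and is used as a marker of neurons and neuroendocrine cells. Probe set 1369977_at measured 7.79 and 6.58 on control replicates 1 and 2 and 7.40 and 8.54 on fibronectin replicates 1 and 2. Fibronectin replicate 1 lay below control replicate 1, so the groups overlapped. The means were 7.18 ± 0.86 and 7.97 ± 0.81 (SD, n = 2 each), a difference of 0.78 (SE 0.57) or 1.72-fold. Leaving out control replicate 2 gave 0.18, leaving out fibronectin replicate 2 gave 0.21, and leaving out control replicate 1 gave 1.39.

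Cnp encodes the cyclic nucleotide phosphodiesterase of myelin-forming cells, and its probe sets moved apart. The brighter one, 1387897_at, measured 8.14 and 7.53 on the controls and 8.77 and 8.92 on fibronectin. Both fibronectin arrays were above both controls and differed by only 0.15, the closest agreement between fibronectin arrays among the 5 tested probe sets. The means were 7.83 ± 0.43 and 8.84 ± 0.11 (SD, n = 2 each), a difference of 1.01 (SE 0.37) or 2.02-fold.

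The second Cnp probe set, 1370693_a_at, went the other way. It measured 7.11 and 7.09 on the controls and 6.09 on fibronectin replicate 1, and was at the floor on fibronectin replicate 2. Both fibronectin arrays lay below both controls, with a difference of -1.78 (SE 0.74), or -1.01 without fibronectin replicate 2. The suffix _a_at marks probes that Affymetrix expected to read several transcripts of 1 gene. The Cnp probe sets were thus 2.79 apart in their differences. Among 850 genes with more than 1 tested probe set, 73 (8.59%) likewise had probe sets separated in opposite directions, and 1.76% had differences at least as far apart as those of Cnp. No direction is given here for Cnp as a gene.

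**Figure D2:**
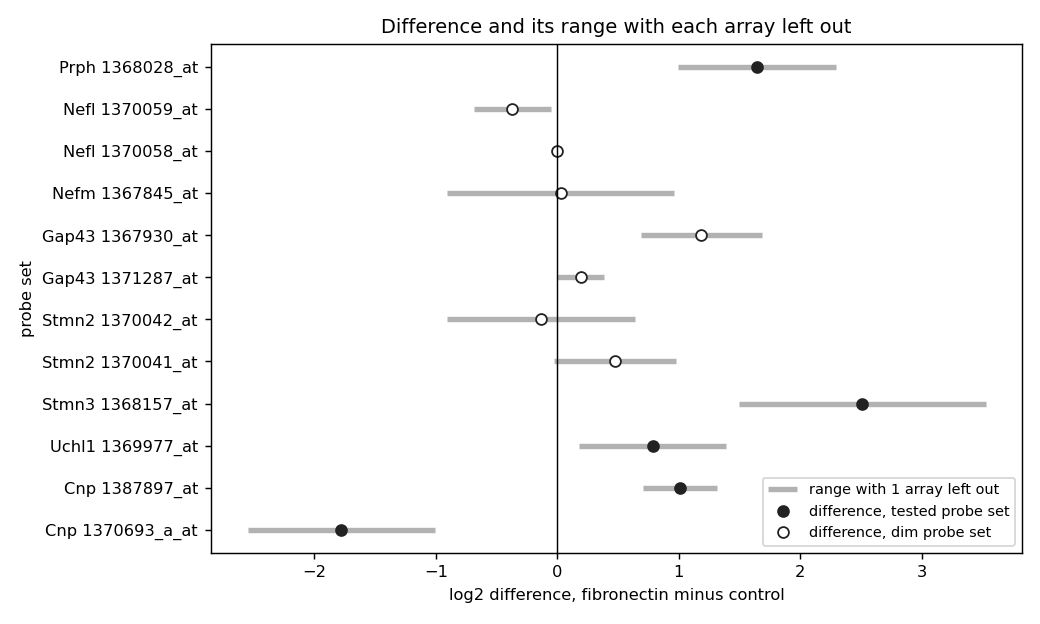
Log2 difference of fibronectin minus control (horizontal axis) for each probe set (vertical axis), as filled circles for tested and open circles for dim probe sets, with grey bars for the range when each array is left out in turn. The bars of Nefm, both Stmn2 probe sets and the second Gap43 probe set reach or cross 0, and the second Nefl probe set sits at it, while those of Prph (1.00 to 2.29), Stmn3 (1.49 to 3.52) and the brighter Cnp probe set (0.70 to 1.32) stay above it.

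Of the 5 tested probe sets, 3 had both fibronectin arrays above both controls and 1 had both below. Over all tested probe sets 19.3% had both fibronectin arrays above and 19.0% had both below. A higher signal on fibronectin by at least 1 without overlap, which Prph, Stmn3 and the brighter Cnp probe set had, was found for 3.42% of tested probe sets. Of all 12 probe sets, dim ones included, 4 lay above and 2 below, against 16.1% and 15.6% of the 15866 probe sets. The rule for choosing the genes used this contrast, so nothing is read from these counts. In limma's fit over all tested probe sets, 0 passed the Benjamini-Hochberg threshold of 0.05 (lowest adjusted p = 0.476), and 616 (6.47%) had an unadjusted p under 0.05. No neural probe set therefore passed. Without fibronectin replicate 1, 337 probe sets passed. Stmn3 and the second Cnp probe set were among them. The spread in that fit comes from the controls alone. The lone fibronectin array, which stood apart from the others, is assumed to vary like them. Nothing is therefore read from that count for any neural gene, Stmn3 and Cnp included.

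Fibronectin replicate 2 carried much of the higher signal. It had the highest value of the 4 arrays in 4 of the 5 tested neural probe sets, as it did in 31.2% of all tested probe sets. The brightest tested probe sets of Prph, Stmn3, Uchl1 and Cnp had a median deviation from the control mean of 0.97 on fibronectin replicate 1 and 1.83 on fibronectin replicate 2. The controls themselves lay at 0.52 and -0.52. Over all tested genes the medians were 0.01 and -0.01 on the controls, 0.06 on fibronectin replicate 1 and 0.03 on fibronectin replicate 2. Control replicate 1 exceeded control replicate 2 in all 4 of these genes, by 0.61 to 1.28, and in 50.9% of tested probe sets, so control replicate 2 was the lowest array in each. The median difference of the 4 was 1.33, or 0.97 without fibronectin replicate 2 and 1.83 without fibronectin replicate 1, and the 7101 tested genes had a median of 0.02. With no filter on dim probe sets the median of the neural genes was 0.90. The genes were chosen by these differences, and their means on fibronectin helped Prph and Stmn3 past the filter, so nothing is read from these medians.

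**Figure D3:**
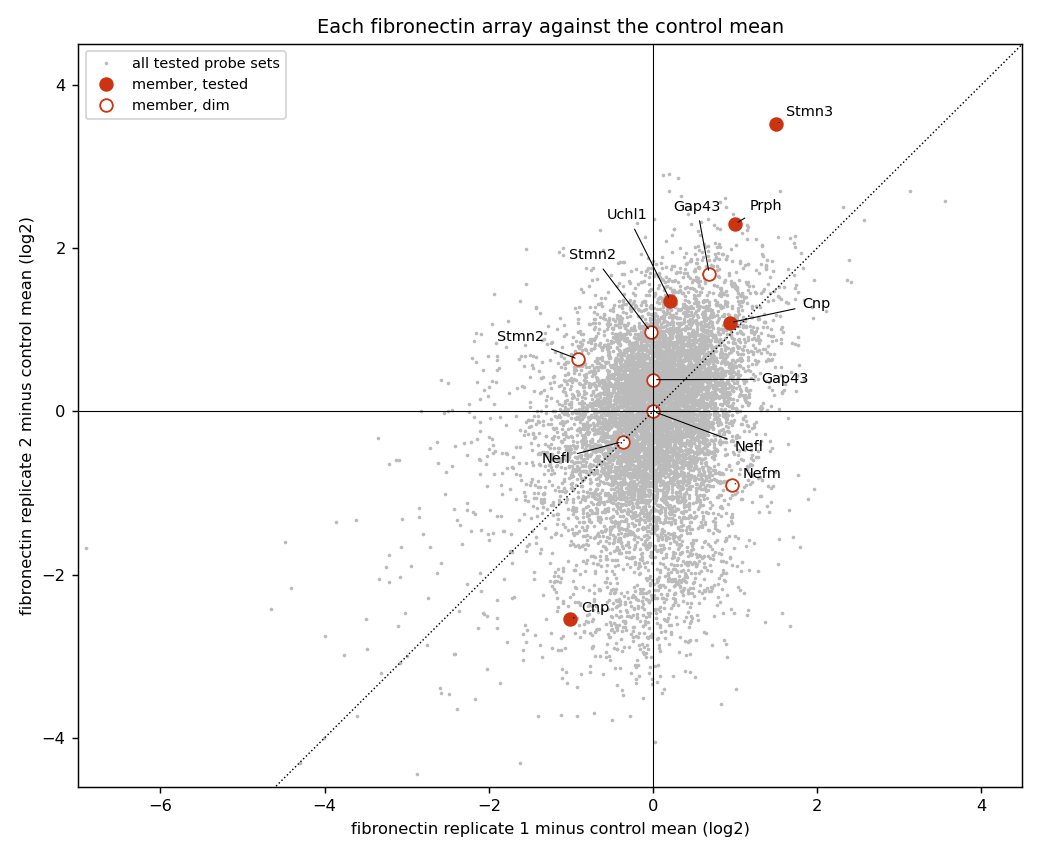
Deviation from the control mean in log2 units on fibronectin replicate 1 (horizontal axis) and fibronectin replicate 2 (vertical axis), for all 9519 tested probe sets (grey), tested neural probe sets (filled) and dim ones (open). Stmn3 stands at 1.49 and 3.52, Prph lies at 1.00 and 2.29, and the Cnp probe sets lie at opposite corners.

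The 4 array values of each gene were set beside those of all other tested genes by their Euclidean distance, after removal of each probe set's mean. The nearest to Prph were Flad1 at a distance of 0.16 and Prcd at 0.27. Nearest to Stmn3 were Kank3 at 0.82 and Procr at 0.90. Cdk20 at 0.22 and Lysmd1 at 0.27 were nearest to Uchl1. Klc1 at 0.10 and Nsmce2 at 0.13 were nearest to the brighter Cnp probe set. The values were not scaled, so a gene with a large difference has few others near it, and the distances cover 4 arrays only.

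Among markers of the cell types that could carry these transcripts, those of neurons and Schwann cells were mostly dim. Ventricular myocyte markers gave a summed normalized signal of 84964 and 76781 on the controls and 90790 and 89885 on fibronectin, with all 11 measured markers tested. Of 15 neuron markers 13 were measured, 4 were tested, and Nefh and Chrna3 were at the floor on all 4 arrays. Without the genes studied here, the remaining 7 neuron markers summed to 287 and 284 on the controls and to 257 and 467 on fibronectin replicates 1 and 2. They were thus higher on fibronectin replicate 2 alone, where Tubb3 supplied 188. Without Tubb3 the remaining 6 summed to 233 and 179 on the controls and 209 and 280 on fibronectin, still highest on that array. Of 11 Schwann cell markers 9 were measured and 3 tested. Without Cnp the other 8 summed to 987 and 1322 on the controls and to 1613 and 1648 on fibronectin. Pmp22 alone supplied 698 and 986 of this on the controls and 1279 and 1164 on fibronectin, and its other probe set was separated the opposite way. Without it the remaining 7 summed to 289 and 336 on the controls and 335 and 485 on fibronectin, so the groups overlapped. Sox10, the transcription factor that defines these glia, was at the floor on 3 arrays and measured 4.83 on fibronectin replicate 2. S100b was at the floor on fibronectin replicate 2 and measured 5.80 to 6.68 on the others. Prx, also dim, measured 4.93 and 5.30 on the controls and 6.25 and 7.08 on fibronectin, a difference of 1.55 without overlap. Erbb3, Fabp7 and Gfap differed by -0.37, 0.34 and 0.19 with overlap. Mbp differed by -0.77 without overlap in 1 dim probe set and by 0.01 in the other.

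Other cell types moved too. Fibroblast markers summed to 31815 and 47971 on the controls and 18505 and 30799 on fibronectin. Leukocyte markers summed to 1353 and 1681 on the controls and 859 and 1213 on fibronectin. Smooth muscle markers summed to 3600 and 8843 on the controls and 4072 and 6755 on fibronectin, endothelial markers to 575 and 521 against 663 and 396, and mesothelial markers to 657 and 576 against 807 and 905. Fibroblast and leukocyte sums were thus lower on fibronectin without overlap, and mesothelial sums higher. Without Col1a1, its brightest gene, the fibroblast list summed to 18978 and 31810 on the controls and 10966 and 21450 on fibronectin, and the groups overlapped. Gene by gene, 5 of the 10 fibroblast markers had both fibronectin arrays below both controls and 0 had both above, with a median difference of -0.75. Over all tested genes 17.2% lay below and 20.6% above. The part of these cell types in the neural values was not tested.

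Other genes were followed through 7 lists with 193 genes, of which 163 had a probe set and 78 were tested by their brightest one. The lists cover neural and glial genes, and also corepressors and ubiquitin hydrolases that are not particular to neural cells, so the pooled shares below are of a mixed set. Both fibronectin arrays were above both controls for 7 genes and below for 19, or 8.97% and 24.4%, against 20.6% and 17.2% of all 7101 tested genes. The median difference was -0.19. These shares hold for tested genes only and depend on the filter. Dim genes of the lists lay on both sides of the controls without overlap. Vip at 1.99 and Prx at 1.55 were among those above, and Rbfox3 at -1.45 and Pcsk1n at -1.36 among those below. With no filter, 52 genes in place of 26 were without overlap. No gene of these lists passed limma's Benjamini-Hochberg threshold in either direction. Over the brightest probe sets of the 7 lists the lowest adjusted p in that fit was 0.718.

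Genes of the neuronal cytoskeleton and growth cone were spread around 0. Of 33 listed genes 18 were tested, 2 were above, 1 was below, and the median was 0.07. Tubb2b, a beta-tubulin of developing neurons, measured 7.65 and 7.10 on the controls and 8.81 and 8.30 on fibronectin, a difference of 1.18 (SE 0.40). Marcks, a growth cone protein regulated like GAP-43 by protein kinase C, differed by 0.47 (SE 0.29) in its brightest probe set but by -0.13 to -1.04 in 4 others. Its relative Marcksl1 differed by -0.33 (SE 0.28).

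The other filament and tubulin genes had no shared direction. Vim, the intermediate filament of mesenchymal cells, measured 12.96 and 13.49 on the controls and 12.82 and 13.47 on fibronectin. Nefh, the heavy neurofilament subunit, was at the floor throughout. Ina, alpha-internexin, had dim probe sets that differed by -0.23 and 0.42. Tubb3, the neuronal beta-tubulin, measured 5.75 and 6.71 on the controls and 5.57 and 7.55 on fibronectin in its tested probe set, a difference of 0.33 (SE 0.81). In a dim Tubb3 probe set fibronectin replicate 2 stood at 7.94 while replicate 1 was at the floor.

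No tested gene of synaptic vesicles and secretory granules lay above both controls. Dim genes of this list lay on both sides, among them Syt4 at 0.91 and Pcsk1n at -1.36. Of 37 listed genes 15 were tested, 0 were above, 5 were below, and the median was -0.53. Syn1, the vesicle protein synapsin, measured 7.96 and 8.13 on the controls and 7.20 and 5.34 on fibronectin, a difference of -1.77 (SE 0.64) that was -0.84 without fibronectin replicate 2. The vesicle GTPase genes Rab3a and Rab3b differed by -0.86 (SE 0.67) and -0.86 (SE 0.41). Without fibronectin replicate 1 the Rab3a difference was -0.41, and without replicate 2 it was -1.32. Npy, neuropeptide Y of sympathetic nerves, at -0.64 and Syp, synaptophysin, at -0.53 completed the 5 and were named after their values were seen.

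Genes that identify autonomic and sensory neurons were tested for 9 of 37, with 1 above, 3 below and a median of -0.21. Dim genes, not in these counts and named after their values were seen, also lay on both sides. In 1 probe set each, Vip at 1.99, Isl1 at 1.26, Ret at 1.17, Ntrk3 at 1.16 and Calca at 0.90 were above both controls. Rbfox3 at -1.45 and Chrnb4 at -0.76 were below. Each of these was at the floor on at least 1 array. Th, tyrosine hydroxylase of catecholamine synthesis, measured 6.25 and 5.36 on the controls and 5.87 and 7.50 on fibronectin, a difference of 0.89 (SE 0.78) with overlap and again the highest value on fibronectin replicate 2. Dbh, a later enzyme of catecholamine synthesis, was dim. It measured 6.61 and 5.15 on the controls and 6.58 on fibronectin replicate 1, and was at the floor on replicate 2. The order of the arrays was thus not shared by Th and Dbh. Ddc, the enzyme between them, named after its values were seen, differed by -0.32 (SE 0.43) with overlap in its brightest probe set. Its other probe set, not in the counts above, differed by -1.17 (SE 0.60), with both fibronectin arrays below both controls. Gata2, a transcription factor of sympathetic neurons and also of blood and endothelial cells, differed by 0.94 (SE 0.53), or 0.55 without fibronectin replicate 2. Below the controls were the sodium channel gene Scn10a at -1.31 (SE 0.78), the vesicular monoamine transporter Slc18a2 at -0.73 (SE 0.60) and the GDNF receptor Gfra1 at -0.47, the last named after its value was seen. Without fibronectin replicate 2 the difference was -0.35 for Scn10a and -0.22 for Slc18a2.

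Schwann cell and other glial genes were tested for 8 of 34, with 2 above, 2 below and a median of 0.28. Mag, a myelin adhesion protein, measured 6.87 and 6.72 on the controls and 5.76 and 6.21 on fibronectin, a difference of -0.81 (SE 0.59). Egr2, the transcription factor of myelinating Schwann cells and also an early response gene, differed by 0.62 (SE 0.67), or 0.40 without fibronectin replicate 1. Cd9, a tetraspanin found in many cells, differed by -0.60 (SE 0.32). Glul, named after its values were seen, differed by -0.08 (SE 0.41) with overlap in its brightest probe set. Its other probe sets, not in the counts above, differed by -2.69 (SE 0.67) and -0.35 (SE 0.34). In each of them both fibronectin arrays lay below both controls. Pmp22, a myelin membrane protein also made by fibroblasts and named after its value was seen, differed by 0.56 (SE 0.31) in its brightest and by -1.60 (SE 0.65) in its other probe set, so that like Cnp it had probe sets separated in opposite directions.

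Ligands and receptors that guide nerve growth were tested for 13 of 27, with 0 above, 4 below and a median of -0.34. Ntf3, neurotrophin-3, measured 6.95 and 7.57 on the controls, 6.01 on fibronectin replicate 1 and the floor on replicate 2, a difference of -1.98 (SE 0.73) that was -1.25 without replicate 2. Ptn, the heparin-binding growth factor pleiotrophin, measured 8.52 and 10.61 on the controls and 8.42 and 8.43 on fibronectin, and its difference of -1.14 (SE 0.62) shrank to -0.09 without control replicate 2. Plxna1, a semaphorin coreceptor, differed by -0.81 (SE 0.36) and by -0.08 in another probe set. Ntn1, netrin-1, at -0.55 was named after its value was seen.

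REST is the repressor of neuronal genes outside the nervous system, and both Rest probe sets were at the floor on all 4 arrays. Of 13 listed genes, REST and its corepressors, 8 were tested, 1 was above, 1 was below, and the median was -0.25. Hdac1, a histone deacetylase of the complex, measured 5.93 and 6.57 on the controls and 7.52 and 7.40 on fibronectin, a difference of 1.22 (SE 0.50). Kdm1a, its histone demethylase, measured 8.30 and 8.76 on the controls and 7.62 and 7.75 on fibronectin, a difference of -0.84 (SE 0.37). These partners of one complex thus stood on opposite sides of the controls.

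Ubiquitin hydrolases other than Uchl1 were tested for 7 of 12, with 1 above, 3 below and a median of -0.35. The ubiquitin-specific protease gene Usp2 differed by -0.55 (SE 0.39), or -0.27 without fibronectin replicate 1, and by 0.51 in another probe set. Usp9x differed by -0.46 (SE 0.41), or -0.05 without fibronectin replicate 2. Its other tested probe sets differed by -0.56 (SE 0.39) and -1.02 (SE 0.41), each with both fibronectin arrays below both controls. Bap1, a nuclear hydrolase of the same family as UCHL1, differed by 0.42 (SE 0.34), or 0.22 without fibronectin replicate 2. Usp47, named after its value was seen, differed by -0.35 (SE 0.36), and by -1.92 (SE 0.60) in its other tested probe set, which also lay below both controls.

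**Figure D4:**
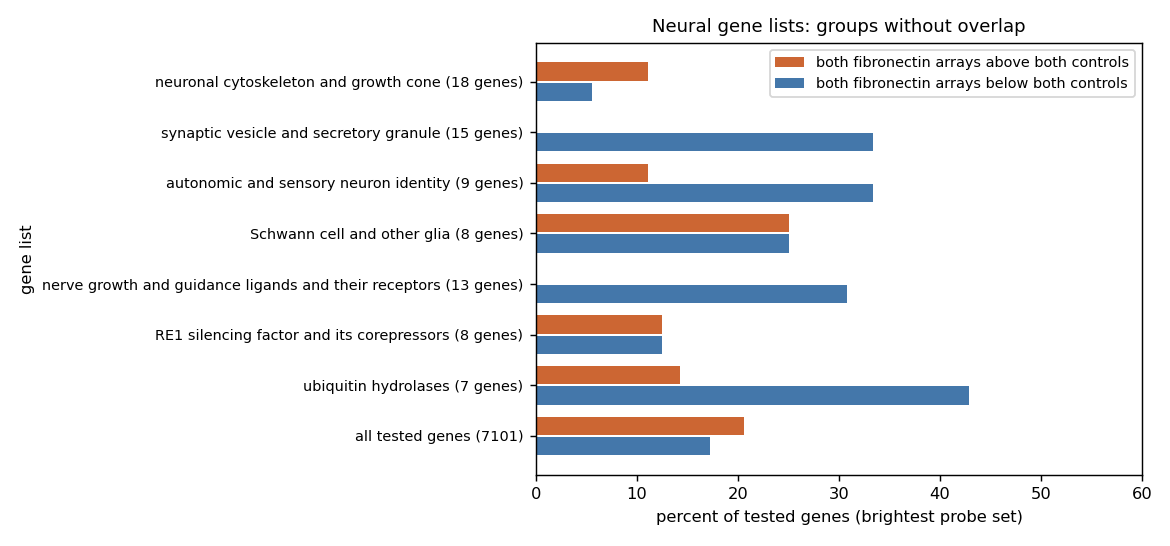
Percent of tested genes (horizontal axis) whose fibronectin arrays both lay above (orange) or both below (blue) the controls, for the 7 lists and all 7101 tested genes (vertical axis), 1 probe set per gene. The synaptic vesicle and the nerve guidance list have no orange bar, with 0 genes above and 5 and 4 below.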

How the data were processed

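The authors deposited 1 signal intensity per probe set on each of 4 Affymetrix rat arrays. The steps from scan to intensity and the scaling target are not given in the sources used here. From the values, each array but control replicate 1 carries its own scale constant. All 15875 probe sets were quantile normalized, and 9 Affymetrix controls were then left out. Values were raised to the 20th percentile and log2 transformed, and the dimmest 40% (6347 probe sets) were left out. Groups were compared in limma 3.58.1 (R 4.3.3) by lmFit and a trended eBayes, with Benjamini-Hochberg adjustment, and the fit was tested on simulated data. With 2 arrays against 2 the smallest two-sided exact permutation p is 0.333. Errors of differences are limma's moderated standard errors. The platform annotation gave 1 symbol for 12783 probe sets, several for 312 and none for 2771, and only the first were named. For lists, each gene had its brightest tested probe set. Besides the studied genes, each list's 3 largest differences without overlap were named, together with Stmn1, Stmn4, Nefh, Ina, Vim, Tubb3, S100b, Sox10, Th, Dbh and Rest, and the 2 tested genes nearest to each studied gene. Some genes of this rule are not reported here. The genes and lists were chosen with earlier results of these data known. The number of arrays limits the precision.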

Additional observations from a re-analysis of the deposited data

How the results depend on the processing

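The number of probe sets past the adjusted threshold stayed at 0 on the deposited scale, after a median shift, with no floor, with an offset, with either other filter, with either other variance model and at a threshold of 0.10. It ran from 0 to 337 with 1 array left out. With the replicate number as a block, which leaves 1 residual degree of freedom, 234 passed, none of them a neural probe set. The labels share only a number between the groups and do not say that it pairs cultures. Of the neural probe sets tested, 3 lay above both controls, 4 with no filter and 1 with 60% left out as dim, and 3 to 4 with 1 array left out. The median over the neural genes ran from 0.86 to 1.84 with 1 array left out, and from 0.90 to 1.33 in the other settings. Genes of the 7 lists without overlap numbered 26, and 17 with 60% left out as dim. With no filter they numbered 52, since dim genes on both sides of the controls were then counted. With 1 array left out they numbered 45 to 60, where 3 arrays separate more easily. Prph, Stmn3, Uchl1, the brighter Gap43 and both Cnp probe sets kept the sign of their differences in each setting run for single probe sets. So did the first Nefl probe set, which was lower on fibronectin by -0.05 to -1.57 and dim. Nefm turned sign in 5 of its 8, and each Stmn2 probe set in 1. Dim values on fibronectin replicate 2 rest on few steps of the deposited scale.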
